A study of Mus musculus with 16 samples.

Results

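Transcripts of 10 genes of the transforming growth factor beta (TGF-beta) pathway were followed in CD8 T cells taken from mouse mammary tumours. They are the ligand Tgfb1, the receptors Tgfbr1 and Tgfbr2, the signal carriers Smad2, Smad3 and Smad4, and the inhibitors Smad7, Ski, Skil and Bambi. They were picked by gene symbol as parts of the pathway, with earlier results of these data known, and all 10 were found among the 24028 genes counted and passed the filter on low counts, which kept 17414 genes.

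TGF-beta binds TGFBR2, which recruits and phosphorylates TGFBR1, and the TGFBR1 kinase then phosphorylates SMAD2 and SMAD3. These join SMAD4 and enter the nucleus, where they switch genes on and off together with other factors. SMAD7 blocks the activated receptor, BAMBI is a receptor-like protein without a kinase, and SKI and SKIL (also called SnoN) hold SMAD complexes in a repressed state with corepressors that carry histone deacetylases. In CD8 T cells TGF-beta is known for holding back cytotoxic genes and for inducing the residency integrin CD103, encoded by Itgae.

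The cells came from TS/A tumours, a mammary adenocarcinoma line injected into the mammary pad of BALB/c mice, and were sorted as live CD45.2+ CD8+ CD4- cells. Tumour-bearing mice received entinostat, which inhibits the class I histone deacetylases, at 20 mg/kg daily from day 7 after injection, or vehicle on the same schedule. The 4 groups were entinostat at day 17, vehicle at day 17, entinostat at day 10 and vehicle at day 10, with 4 libraries each, so that day 17 followed 10 days of dosing and day 10 followed 3. The labels give no age, no genetic alteration and no statement that libraries came from separate mice. The p-values below therefore cover the spread among the libraries measured, part of which may be technical.

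At day 17 the entinostat libraries held 554593 to 3530961 counts and the vehicle libraries 2842099 to 6975904. At day 10 the entinostat libraries held 2639019 to 5709243 counts and the vehicle libraries 3640768 to 4227704. Levels are CPM, counts scaled to a common library total after TMM correction. The 11 CD8 T cell markers in the table summed to between 3356 and 5669 CPM in every library, and none was at 0 in a group. The 14 markers of plasmacytoid dendritic cells also had counts, and their sum moved with the drug: 745 to 974 CPM with entinostat against 2862 to 3484 CPM with vehicle at day 17, and 739 to 1282 CPM with entinostat against 1685 to 3223 CPM with vehicle at day 10. None of these markers was at 0 in a group and 13 of 14 fell at each day. Neutrophil markers, 7 in the table, were low throughout but summed higher with the drug, to 57.8 to 97.1 CPM with entinostat against 8.70 to 49.5 CPM with vehicle at day 17, and 27.7 to 125 CPM with entinostat against 4.92 to 30.5 CPM with vehicle at day 10, where the ranges overlapped; 4 of the 7 rose at day 10 and none was called at day 17. The 8 natural killer cell markers summed lower with the drug. At day 17 their sum was 98.7 to 195 CPM with entinostat against 249.7 to 292 CPM with vehicle. At day 10 it was 175 to 223 CPM with entinostat against 273 to 317 CPM with vehicle. Of the 6 tested, 1 fell at each day, and the list median log2 fold change was near 0, at −0.10 at day 17 and −0.07 at day 10. Klra4 was at 0 in every group and Klra8 in all but vehicle at day 17. The sum of 8 endothelial markers was apart at day 17, at 140 to 189 CPM with entinostat against 209 to 258 CPM with vehicle, and overlapped at day 10. Of the 7 tested, 2 fell and none rose at day 17, but the list median log2 fold change was 0.53. The lower sum was thus not shared by most of the tested endothelial markers. The sum of 8 tumour epithelial markers lay lower with the drug, with overlap. It was 86.2 to 191.5 CPM with entinostat against 172.7 to 333 CPM with vehicle at day 17. At day 10 it was 113 to 157 CPM with entinostat against 156 to 259 CPM with vehicle. Of the 4 tested, 1 fell at each day, with list median log2 fold changes of −0.38 at day 17 and 0.59 at day 10. Cldn3 was at 0 in every group but vehicle at day 10, and Cldn4 with entinostat at day 17. The sum of 16 dendritic cell and macrophage markers, given below with Itgae, was lower with entinostat and apart at day 17. Of the 12 tested, 3 fell and none rose at day 17, and 3 fell and 1 rose at day 10. The sum of 9 fibroblast markers overlapped between the treatments at both days. Among these 1 fell at day 17 and 1 rose at day 10, with list median log2 fold changes of −1.26 and 1.36 in that order. The part of all these cells in the drug results below was not tested. In bulk RNA, fewer cells of a type and less RNA per cell cannot be told apart.

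Per kilobase of exon, Tgfb1 and Tgfbr2 had the highest averages of the members at day 17, and Tgfbr2 and Skil at day 10. At day 10 Tgfbr2, Skil, Smad7 and Tgfb1 overlapped, each with the next in order, under both treatments. Tgfb1 averaged 67.3 ± 12.8 CPM per kb with entinostat and 64.9 ± 8.12 with vehicle at day 17 (SD, n = 4 each). Tgfbr2 averaged 55.9 ± 7.96 CPM per kb with entinostat and 52.3 ± 2.99 with vehicle at day 17, and overlapped with Tgfb1 with entinostat but not with vehicle. Tgfbr1 was well below its partner, at 8.96 ± 1.41 CPM per kb with entinostat and 22.4 ± 6.01 with vehicle at day 17. Among the signal carriers the order of averages was Smad4, Smad3, Smad2 in each of the 4 groups. Libraries of Smad4 and Smad3 overlapped with entinostat at day 10, and those of Smad3 and Smad2 with entinostat at day 17. With vehicle at day 10 the levels were 62.3 ± 1.42 CPM per kb for Smad4, 28.5 ± 1.88 for Smad3 and 14.8 ± 0.560 for Smad2, with no overlap between these 3 genes. Ski and Bambi were the lowest members with vehicle at both days and with entinostat at day 17, between 4.03 and 11.8 CPM per kb on average. With entinostat at day 10 Bambi stood above Tgfbr1 and Smad2 instead, at 16.9 ± 1.09 CPM per kb, although its libraries overlapped with those of Tgfbr1.

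After 3 days of entinostat 2 of the 10 members were called, Bambi higher and Smad4 lower, while the other 8 members did not pass the test. That share is near the 14.6% of all tested genes. After 10 days Tgfbr1, Smad3, Smad7 and Skil fell and no member rose, although some other fits called Tgfb1 or Tgfbr2 higher. These are calls at each day; by the test of the difference between the days only Tgfbr1 and Bambi differed, and both of those calls were lost with a replicate block. A gene was called at a Benjamini-Hochberg adjusted p under 0.05 in edgeR's quasi-likelihood test, fitted to all tested genes. Adjusted p-values below are from that fit where no other is named. At day 10 the 2 calls among 10 members stand beside 14.6% of all tested genes, 7.63% called higher and 6.93% called lower, and the members' median log2 fold change was −0.20 against 0.06 for all tested genes. At day 17 the 4 lower members stand beside 13.0% of tested genes called lower, 5.29% called higher and 18.3% in either direction, with a median of −0.40 for the members and −0.01 for all tested genes. Genes of at least 16 CPM had medians of −0.22 at day 17 and −0.17 at day 10, and members' fold changes are to be read against these shifts. The CPM ranges of the groups were apart for 3 members at each day, beside 24.4% of tested genes at day 17 and 20.4% at day 10.

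**Figure D1:**
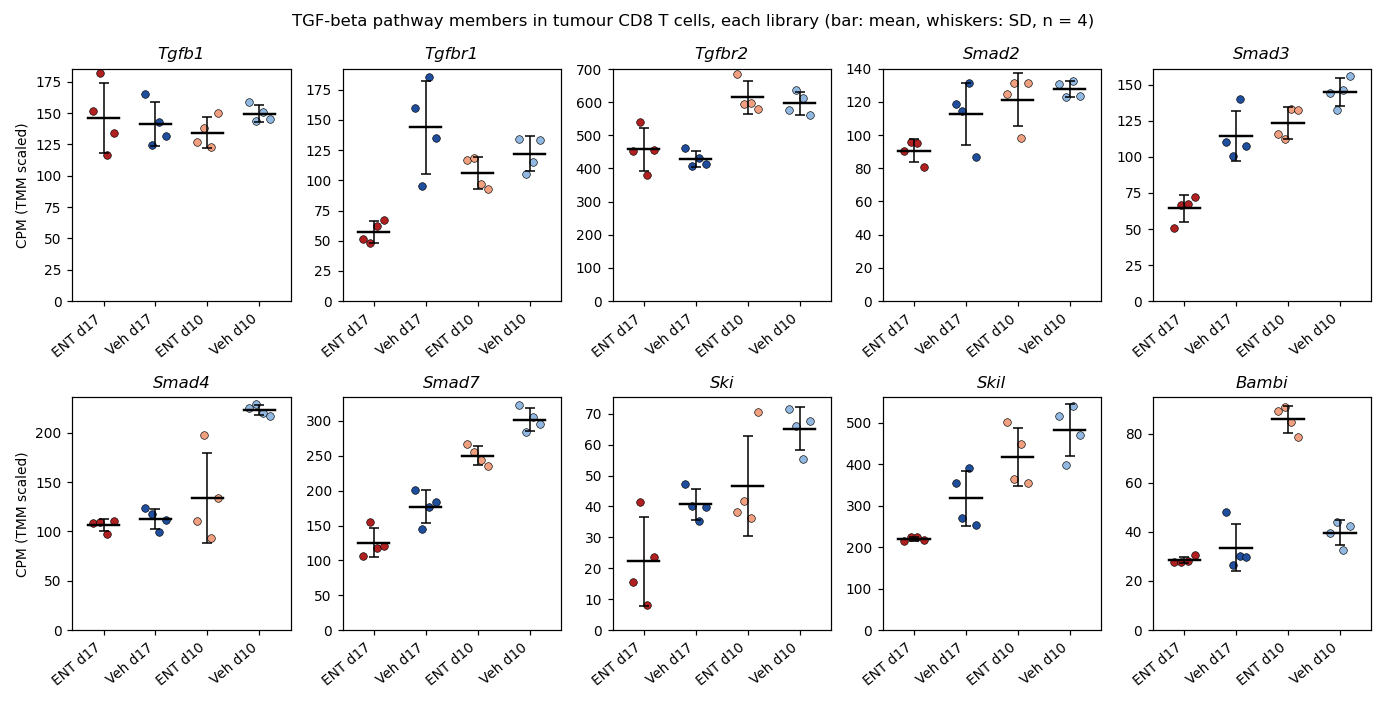
Level of each member (CPM, TMM scaled, linear axes from 0) in each of the 16 libraries, with entinostat (ENT) in red shades and vehicle (Veh) in blue shades, dark for day 17 (d17) and pale for day 10 (d10). Bars are means and whiskers SD over 4 libraries. Tgfbr1 and Smad3 are apart between entinostat and vehicle at day 17, and Bambi and Smad4 at day 10.

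The ligand gene Tgfb1 (Entrez 21803, chr7:25687002-25705077, plus strand, GRCm38) was not called in any of the comparisons. At day 17 it lay between 117 and 182 CPM with entinostat and between 124 and 165 CPM with vehicle. At day 10 it lay between 123 and 150.3 CPM with entinostat and between 144 and 158 CPM with vehicle. Its log2 fold change for entinostat was 0.08 ± 0.12 at day 17 (SE, adjusted p = 0.686) and −0.15 ± 0.12 at day 10 (adjusted p = 0.393). At day 17 it was called higher by limma-voom with cyclic loess scaling (0.33, adjusted p = 0.017) and by a fit of genes of at least 16 CPM (0.29, adjusted p = 0.0224). Over time with entinostat, day 17 against day 10, it was called higher with a minimum count of 50 (0.27, adjusted p = 0.0479), with cyclic loess (0.39, adjusted p = 0.00832) and with genes of at least 16 CPM (0.31, adjusted p = 0.0168).

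Of the 2 receptor genes, Tgfbr1 fell with 10 days of entinostat and Tgfbr2 did not pass the test. Tgfbr1 (Entrez 21812, chr4:47353222-47414926, plus strand) encodes the signalling kinase. Its level was 51.5, 48.5, 62.5 and 67.5 CPM in the 4 entinostat libraries of day 17, against 159.7, 95.2, 186 and 135 CPM in the vehicle libraries of that day. Every entinostat library was below every vehicle library, although the vehicle libraries differed widely among themselves. The log2 fold change was −1.34 ± 0.18 (SE, adjusted p = 5.83e-05), and it was called under all 28 alternatives run, between −1.45 and −1.12. At day 10 the level was 117, 118, 96.6 and 92.8 CPM with entinostat, against 134, 105, 115 and 134 CPM with vehicle. These ranges overlapped, and the log2 fold change of −0.20 ± 0.17 did not pass the test (adjusted p = 0.414).

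The entinostat effect on Tgfbr1 differed between the days by −1.14 ± 0.25 on the log2 scale, day 17 minus day 10 (adjusted p = 0.0455). For this difference 0.471% of all tested genes were called, and 2 of the 10 members, Tgfbr1 and Bambi. The share was larger among genes of at least 16 CPM fitted alone, where 195 of 9758 were called higher and 154 lower. Tgfbr1 and Bambi were called there too. The call is close to the threshold: it held in 10 of 27 alternatives, with adjusted p from 0.00288 to 0.0997 and values from −1.28 to −1.01. With the replicate number as a block the adjusted p was 0.0668, and with the block within each day 0.0739. Leaving out any library other than vehicle day 17 replicate 2 and entinostat replicates 4 of both days also took the adjusted p above 0.05, to between 0.0539 and 0.0997.

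Tgfbr2 (Entrez 21813, chr9:116087695-116175363, minus strand), the ligand-binding receptor, lay at 382 to 541 CPM with entinostat and 408 to 462 CPM with vehicle at day 17. The day 10 levels were 579 to 686 CPM with entinostat and 562 to 637 CPM with vehicle. The groups overlapped at both days, with log2 fold changes of 0.11 ± 0.10 at day 17 (adjusted p = 0.473) and 0.04 ± 0.10 at day 10 (adjusted p = 0.768). A minimum count of 50, DESeq2 and the fit of genes of at least 16 CPM called it higher at day 17, up to 0.32. The receptor gene was lower at day 17 than at day 10 under both treatments, with log2 fold changes of −0.41 ± 0.10 with entinostat (adjusted p = 0.00954) and −0.48 ± 0.10 with vehicle (adjusted p = 0.012). These time calls were lost with library size alone (adjusted p = 0.0513 with entinostat and 0.0551 with vehicle) and with cyclic loess (0.261 and 0.594 in that order). The entinostat call was also lost in a fit of the compared groups alone (0.0626) and of genes of at least 16 CPM (0.0535), and the vehicle call without vehicle day 10 replicate 3 (0.0505).

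Because both receptor counts come from the same library, their ratio needs no scaling between libraries; it was chosen after the values were seen and is given without a test. Tgfbr1 counts over Tgfbr2 counts were 0.0896 to 0.164 in entinostat libraries and 0.233 to 0.431 in vehicle libraries at day 17. At day 10 the ratio was 0.160 to 0.200 with entinostat and 0.165 to 0.238 with vehicle. The ratio was apart between the treatments at day 17 and overlapped at day 10.

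Among the signal carriers, Smad3 fell with entinostat at day 17, Smad4 fell with entinostat at day 10, and Smad2 was not called at either day. Smad3 (Entrez 17127, chr9:63646766-63757994, minus strand) encodes a receptor-activated carrier that binds DNA directly. It stood at 50.8, 66.9, 67.5 and 71.9 CPM with entinostat at day 17, against 110.3, 100.4, 140.1 and 107 CPM with vehicle. The 2 groups were apart, at a log2 fold change of −0.84 ± 0.13 (SE, adjusted p = 0.000235), called under all 28 alternatives between −0.998 and −0.602. At day 10 it stood at 116, 112, 133 and 133 CPM with entinostat, against 144, 133, 146 and 156 CPM with vehicle. The highest entinostat libraries of day 10 lay just above the lowest vehicle library, and −0.23 ± 0.12 was not called (adjusted p = 0.199). The difference of the effects, −0.61 ± 0.18, was not called either (adjusted p = 0.13).

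The promoters of the 2 members that fell at day 17 under every alternative run are shown beside that of Tgfbr2, which was not called. The sequences are the 250 bases before the first start site in the RefSeq table of GRCm38.p6, which held 5 of the 10 members, read on the strand of the gene. Capitals mark the GC box GGGCGG or its complement CCGCCC, a site read by Sp1-family factors, and the short Smad site GTCTG or its complement CAGAC.
Tgfbr1, chr4:47352972-47353221, plus strand: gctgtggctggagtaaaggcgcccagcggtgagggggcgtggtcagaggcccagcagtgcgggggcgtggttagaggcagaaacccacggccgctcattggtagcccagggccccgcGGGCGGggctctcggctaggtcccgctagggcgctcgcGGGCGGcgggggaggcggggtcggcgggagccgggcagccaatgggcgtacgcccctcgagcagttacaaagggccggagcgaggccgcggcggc
Smad3, chr9:63757995-63758244, minus strand: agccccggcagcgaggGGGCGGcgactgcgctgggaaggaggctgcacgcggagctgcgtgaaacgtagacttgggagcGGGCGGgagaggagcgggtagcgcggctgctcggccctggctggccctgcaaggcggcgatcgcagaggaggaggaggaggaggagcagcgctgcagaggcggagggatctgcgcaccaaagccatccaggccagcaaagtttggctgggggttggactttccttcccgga
Tgfbr2, chr9:116175364-116175613, minus strand: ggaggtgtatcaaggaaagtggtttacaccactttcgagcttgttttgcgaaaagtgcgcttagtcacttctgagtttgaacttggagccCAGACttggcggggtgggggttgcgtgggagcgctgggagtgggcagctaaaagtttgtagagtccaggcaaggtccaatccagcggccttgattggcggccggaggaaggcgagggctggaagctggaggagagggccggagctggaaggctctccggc
The Tgfbr1 and Smad3 windows each hold 2 GC boxes and no short Smad site, and the Tgfbr2 window holds 1 short Smad site and no GC box. The windows of Tgfb1 and Ski, which were not called for entinostat at day 17 either, hold 5 GC boxes and no short Smad site each. Of 32851 promoter windows of this length, 32.7% hold a GC box on either strand, 16.7% hold at least 2, and 42.2% hold a short Smad site. The window is 74.8% G and C for Tgfbr1, 69.2% for Smad3, 58.4% for Tgfbr2, 75.2% for Tgfb1 and 87.6% for Ski. None of the 3 holds the palindrome GTCTAGAC, found in 0.167% of windows, or the AP-1 letters TGANTCA, found in 6.75%. A second Tgfbr1 start in that table, at chr4:47385966-47386215, holds 1 short Smad site and no GC box.

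Smad4 (Entrez 17128, chromosome 18) encodes the common partner of the receptor-activated SMADs. At day 10 it stood at 110.2, 198, 93.5 and 134 CPM with entinostat, against 225, 229, 220.3 and 217 CPM with vehicle. All entinostat libraries were below all vehicle libraries, but they scattered far more, with an SD of 45.7 CPM against 5.08 CPM. The log2 fold change was −0.73 ± 0.16 (SE, adjusted p = 0.00865), called under all 28 alternatives between −0.93 and −0.54. At day 17 it stood at 108, 109, 97.1 and 110.2 CPM with entinostat, against 123, 117, 99.3 and 111 CPM with vehicle. Here the groups overlapped, and −0.07 ± 0.16 was not called (adjusted p = 0.79). The difference of the effects between days was 0.65 ± 0.23 (adjusted p = 0.209), although DESeq2 and the fit without entinostat day 10 replicate 2 called it, the smaller adjusted p being 0.0265.

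Over time Smad4 fell with vehicle, at a log2 fold change of −0.98 ± 0.16 for day 17 against day 10 (SE, adjusted p = 0.00359), called under all 27 alternatives of that comparison. With entinostat the change over time was −0.32 ± 0.16 (adjusted p = 0.215). The entinostat level at day 10 thus overlapped with both groups of day 17, and the vehicle level at day 10 stood above every other group. An antisense gene lies in the span of Smad4 in GENCODE but shares 0 exon bases with it. Smad4 counts over Smad2 counts, again without a test, were 0.884 to 1.503 with entinostat and 1.67 to 1.86 with vehicle at day 10. At day 17 they were 1.02 to 1.36 with entinostat and 0.756 to 1.28 with vehicle.

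Smad2 (Entrez 17126, chromosome 18), the other receptor-activated carrier of the TGF-beta branch, lay at 81.0 to 95.8 CPM with entinostat and 86.9 to 131 CPM with vehicle at day 17. The day 10 levels were 98.1 to 132 CPM with entinostat and 123 to 132 CPM with vehicle. Its log2 fold change was −0.32 ± 0.13 at day 17 (adjusted p = 0.084) and −0.06 ± 0.12 at day 10 (adjusted p = 0.723). At day 17 limma-voom with quality weights called it lower, and so did the fit without vehicle day 17 replicate 4, the lower adjusted p being 0.0193.

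Among the inhibitors, Bambi rose with entinostat at day 10, Smad7 and Skil fell with entinostat at day 17, and Ski was not called at either day. Bambi (Entrez 68010, chromosome 18) stood at 89.5, 90.8, 84.9 and 78.5 CPM with entinostat at day 10, against 39.6, 44.2, 32.5 and 42.5 CPM with vehicle. The groups were far apart and each was narrow, and the log2 fold change was 1.11 ± 0.18 (SE, adjusted p = 0.0011), called under all 28 alternatives between 1.03 and 1.28. Receptor genes of smell and pheromone sensing are silent in T cells, and reads counted there, taken as a gauge of reads unrelated to expression, made up 586 to 5722 CPM with entinostat and 582 to 1863 CPM with vehicle at day 10, and 3628 to 6901 CPM with entinostat and 636 to 5290 CPM with vehicle at day 17. With these reads as a covariate the 4 drug calls of day 17 held, and over time with entinostat 6 members were called in place of 8, Smad2 and Ski being lost. At day 10 the receptor reads largely went with the drug. They were 5722, 3365 and 5175 CPM in entinostat replicates 1, 2 and 3, and 586 CPM in replicate 4. A covariate that follows the drug this closely cannot tell the 2 apart, and the part of these reads in the Bambi level was not tested.

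At day 17 Bambi stood at 27.8, 27.8, 28.0 and 30.6 CPM with entinostat, against 48.0, 26.6, 30.3 and 29.6 CPM with vehicle. The ranges overlapped, with vehicle replicate 1 above the rest, and −0.24 ± 0.18 was not called (adjusted p = 0.385). The entinostat effect differed between the days by −1.35 ± 0.25, day 17 minus day 10 (adjusted p = 0.0279), and the difference was called in 19 of 27 alternatives. It was not called with the replicate block (adjusted p = 0.0513) or with the block within each day (0.0796). Nor was it called without any of 6 libraries: vehicle day 10 replicates 1 (0.0684), 3 (0.062) and 4 (0.0517), entinostat day 10 replicates 1 (0.0608) and 3 (0.0647), and entinostat day 17 replicate 1 (0.0658). At the same time the difference itself lay between −1.45 and −1.12 over all alternatives.

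Bambi counts over Tgfbr1 counts, given without a test, were higher with entinostat at both days. They were 0.447 to 0.575 with entinostat and 0.163 to 0.301 with vehicle at day 17, and 0.763 to 0.879 with entinostat and 0.282 to 0.421 with vehicle at day 10. At day 10 this went with a higher Bambi level and at day 17 with a lower Tgfbr1 level.

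**Figure D2:**
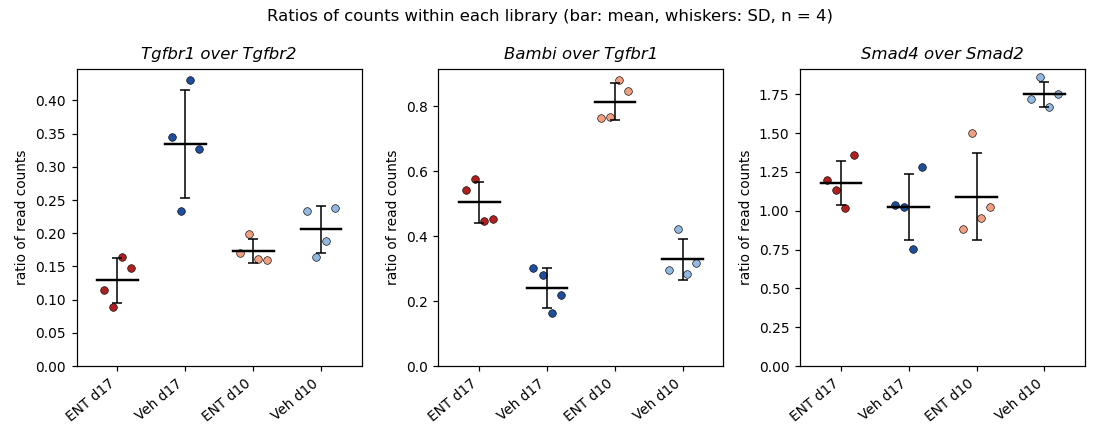
Ratios of read counts of 2 members within each library (linear axes from 0), for entinostat (ENT, red shades) and vehicle (Veh, blue shades) at day 17 (d17) and day 10 (d10), with means as bars and SD as whiskers over 4 libraries. Tgfbr1 over Tgfbr2 is apart between treatments at day 17, Smad4 over Smad2 at day 10, and Bambi over Tgfbr1 at both days.

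Smad7 (Entrez 17131, chromosome 18), the inhibitory SMAD that TGF-beta itself induces, stood at 106, 155, 118 and 121 CPM with entinostat at day 17, against 201, 145, 177 and 184 CPM with vehicle. Entinostat replicate 2 reached above vehicle replicate 2, so the groups overlapped by those libraries. The log2 fold change was −0.49 ± 0.12 (SE, adjusted p = 0.008), called in 25 of 28 alternatives. It was lost with cyclic loess (adjusted p = 0.0803), with the compared groups alone (0.0548) and with genes of at least 16 CPM (0.0752). At day 10 it stood at 267, 255, 244 and 236 CPM with entinostat, against 323, 284, 306 and 296 CPM with vehicle. The groups of day 10 were apart, but −0.27 ± 0.11 was not called (adjusted p = 0.107), except by limma-voom with quality weights (−0.26, adjusted p = 0.0283).

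Skil (Entrez 20482, chr3:31095058-31122923, plus strand), also a TGF-beta target, stood at 214, 225, 224 and 218 CPM with entinostat at day 17, against 355, 270.2, 390.2 and 254 CPM with vehicle. The entinostat libraries were almost level and all below the vehicle libraries. The log2 fold change of −0.52 ± 0.14 was called (SE, adjusted p = 0.0174), but in 19 of 28 alternatives. It was lost with RLE scaling (adjusted p = 0.0564), library size alone (0.0695), a minimum count of 50 (0.0904), cyclic loess (0.063) and genes of at least 16 CPM (0.143). It was also lost when replicate 1 (0.0547) or 4 (0.052) of the entinostat libraries or replicate 1 (0.0726) or 3 (0.0812) of the vehicle libraries of day 17 was left out. At day 10 Skil stood at 502, 365, 448 and 354 CPM with entinostat, against 517, 398, 541 and 469 CPM with vehicle, and −0.20 ± 0.14 was not called (adjusted p = 0.311).

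Ski (Entrez 20481, chr4:155154075-155222535, minus strand), the founder of the SKI family, was the least precise member. It stood at 15.7, 41.5, 8.23 and 23.5 CPM with entinostat and 47.3, 40.1, 35.4 and 39.9 CPM with vehicle at day 17, and the lowest of these rested on 5 reads in the shallowest library. At day 10 it stood at 38.1, 41.8, 36.2 and 70.5 CPM with entinostat and 71.6, 66.0, 55.3 and 67.6 CPM with vehicle. In each day 1 entinostat library lay inside the vehicle range and the other 3 below it. The log2 fold changes of −0.76 ± 0.31 at day 17 (adjusted p = 0.0908) and −0.47 ± 0.29 at day 10 (adjusted p = 0.262) were not called. Limma-voom with quality weights called both, the adjusted p at day 10 being 0.00691, and the fit without entinostat day 17 replicate 2 called day 17.

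Compared with day 10, members were called lower at day 17 under both treatments. None was called higher under either, although 3 alternatives called Tgfb1 higher with entinostat. The counts of calls below are no test of a difference between the treatments. That test is the same as the one for the difference of entinostat effects between days. It called only Tgfbr1 and Bambi, and both calls were lost with a replicate block. With entinostat 8 of 10 were called lower and none higher, beside 10.5% of tested genes called lower, 3.26% higher and 13.7% in either direction, with a median log2 fold change of −0.91 for the members and 0.03 for all tested genes. With vehicle 4 of 10 were called lower and none higher, beside 3.63% of tested genes called lower, 1.89% higher and 5.52% in either direction, with medians of −0.41 and 0.13. Genes of at least 16 CPM had medians of −0.16 with entinostat and −0.10 with vehicle. The CPM ranges of the days were apart for 7 members with entinostat and 5 with vehicle, beside 21.5% and 13.6% of tested genes. The time comparisons share their libraries with the drug comparisons and are not independent of them.

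For Bambi the log2 fold change over time was −1.58 ± 0.18 with entinostat (SE, adjusted p = 3.46e-05), a fall, and −0.23 ± 0.18 with vehicle, which was not called (adjusted p = 0.42). Smad7 fell under both treatments, with log2 fold changes of −0.99 ± 0.12 with entinostat (adjusted p = 3.8e-05) and −0.77 ± 0.11 with vehicle (adjusted p = 0.00259). Skil also fell under both, with log2 fold changes of −0.92 ± 0.14 with entinostat (adjusted p = 0.00036) and −0.60 ± 0.14 with vehicle (adjusted p = 0.0222). The Skil call with vehicle was lost without vehicle day 10 replicate 3 (0.0884) or day 17 replicate 2 (0.0592), with library size alone (0.0579), cyclic loess (0.291) and genes of at least 16 CPM (0.0541). The Smad3 log2 fold change was −0.95 ± 0.13 with entinostat (adjusted p = 0.000113), and −0.34 ± 0.12 with vehicle, which was not called (adjusted p = 0.102). The Tgfbr1 log2 fold change was −0.90 ± 0.18 with entinostat (adjusted p = 0.00263), and 0.24 ± 0.17 with vehicle, which was not called (adjusted p = 0.364).

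The calls of Bambi, Smad7, Skil, Smad3 and Tgfbr1 over time with entinostat, and of Smad4 and Smad7 with vehicle, held in all 27 alternatives. The entinostat calls of Smad2 (−0.42 ± 0.13, adjusted p = 0.0305) and Ski (−0.97 ± 0.31, adjusted p = 0.0435) held in 17 and 15 of 27. Smad2 was lost when entinostat replicate 1 (0.0598) or 4 (0.056) of day 10 or replicate 4 of day 17 (0.0695) was left out. Ski was lost when vehicle day 10 replicate 3 (0.0525), entinostat replicates 2 (0.0502) or 4 (0.146) of day 10, or entinostat replicates 1 (0.122), 3 (0.0838) or 4 (0.0895) of day 17 were left out. Without entinostat day 10 replicate 4 the Ski change was −0.70.

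**Figure D3:**
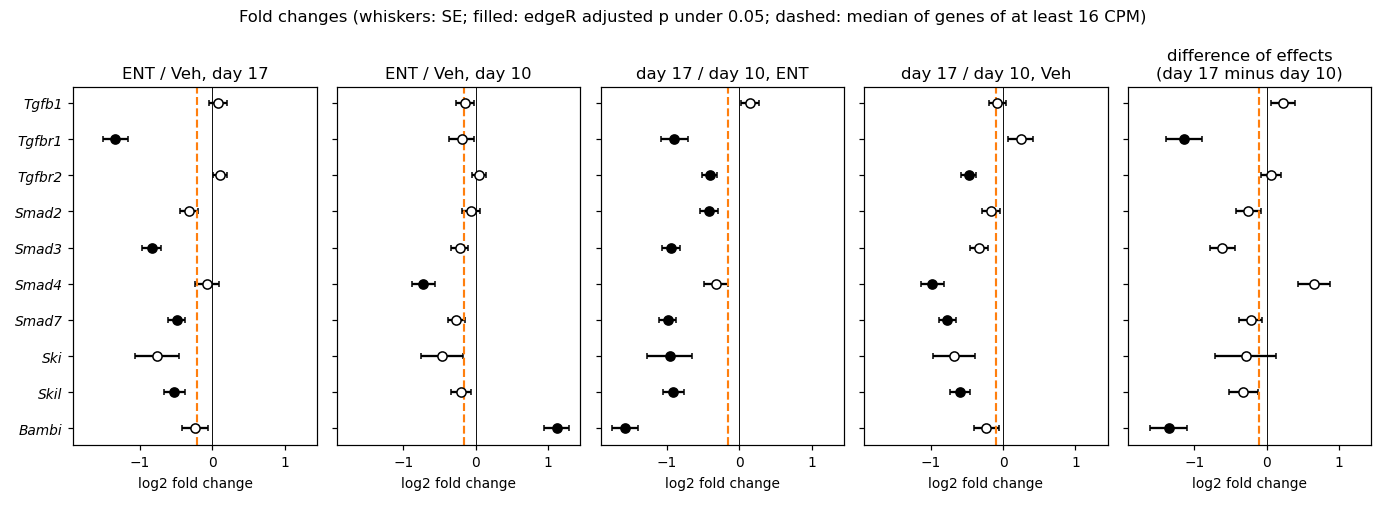
Log2 fold change of each member with its SE in the 5 comparisons of entinostat (ENT), vehicle (Veh), day 17 and day 10, with filled points for an edgeR adjusted p under 0.05 and the dashed line at the median of genes of at least 16 CPM. Filled points lie left of 0 except Bambi for entinostat at day 10, and the time comparison with entinostat holds 8 of them.

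Around the members, 7 lists of pathway genes were counted in the same fit. The lists are not separate: some genes are shared between them, and the members Smad7, Ski and Skil also stand among the genes raised by TGF-beta. Of 17 genes raised by TGF-beta in T cells, 7 fell and none rose with entinostat at day 17, with a list median of −0.52, and 2 fell and none rose at day 10, with a median of −0.20. The members Smad7 and Skil are among the 7, and so is Ldlrad4, which is counted again below under turnover and braking. Itgae, which encodes CD103, averaged 52.2 ± 22.1 CPM with entinostat and 195 ± 71.8 CPM with vehicle at day 17, and 143 ± 49.1 CPM with entinostat and 315 ± 69.5 CPM with vehicle at day 10 (SD, n = 4 each). Its log2 fold change was −1.96 ± 0.34 at day 17 (SE, adjusted p = 0.000601) and −1.14 ± 0.30 at day 10 (adjusted p = 0.0222). Ccr8, a chemokine receptor, fell at day 17 (−1.60 ± 0.36 on that scale, adjusted p = 0.00524), and Cxcr6, a receptor of resident T cells, fell at day 10 (−0.56 ± 0.15, adjusted p = 0.0242). Itgae is also used by some dendritic cells: the summed level of 16 dendritic cell and macrophage markers was 229 to 281 CPM with entinostat against 471 to 839.9 CPM with vehicle at day 17, and 172 to 246 CPM with entinostat against 240.3 to 649.6 CPM with vehicle at day 10. Of the 16 only C1qc was at 0 in any group, with vehicle at day 10, and the part of these cells in the Itgae change was not tested.

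Of 14 genes lowered by TGF-beta in T cells, 6 rose and 1 fell with entinostat at day 17, and 2 rose and none fell at day 10. The list medians were 0.14 at day 17 and 0.16 at day 10, and the shares of all tested genes given above, 13.0% lower and 5.29% higher at day 17 and 6.93% lower and 7.63% higher at day 10, apply to each list. Gzmb, a granzyme, averaged 935 ± 514 CPM with entinostat and 186 ± 27.4 CPM with vehicle at day 17 (SD, n = 4 each; log2 fold change 2.31 ± 0.26, SE, adjusted p = 9.61e-06). Prf1, the pore-former perforin, rose at day 17 (log2 fold change 1.93 ± 0.15, adjusted p = 3.62e-07). Gzma, another granzyme, rose at both days, with log2 fold changes of 1.26 ± 0.19 at day 17 (adjusted p = 0.000201) and 0.77 ± 0.19 at day 10 (adjusted p = 0.0145). The entinostat effects on Prf1 and Gzmb differed between the days by 1.78 and 1.71 on the log2 scale, day 17 minus day 10 (adjusted p = 0.00138 and 0.0423). S1pr1, the receptor for exit from tissue, was the 1 that fell at day 17 (log2 fold change −0.59 ± 0.12, adjusted p = 0.00297).

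Of 20 genes for turnover and braking of receptors and SMADs, 4 fell and none rose with entinostat at day 17, and 2 fell and none rose at day 10, with list medians of −0.23 and −0.22 in that order. Sik1, a kinase gene induced by TGF-beta whose product takes part in receptor turnover, averaged 91.7 ± 20.9 CPM with entinostat and 191 ± 23.1 CPM with vehicle at day 17 (SD, n = 4 each). It fell at both days, with log2 fold changes of −1.02 ± 0.13 at day 17 (SE, adjusted p = 3.54e-05) and −0.58 ± 0.12 at day 10 (adjusted p = 0.00818). Usp11, a deubiquitinase, fell at day 17 (log2 fold change −1.25 ± 0.18, adjusted p = 0.000148), and Ldlrad4, an inhibitor that keeps SMAD2 and SMAD3 from the receptor, fell too (−0.79 ± 0.23, adjusted p = 0.0225). Usp4, a deubiquitinase of TGFBR1, fell at day 10 (log2 fold change −0.25 ± 0.08, adjusted p = 0.0433).

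Among 8 tested genes of other SMADs and SMAD partners, none was called with entinostat at day 17 and 1 fell at day 10, with list medians of −0.18 and −0.14 in that order. That gene was Crebbp, an acetyltransferase and coactivator, at 157 ± 21.8 CPM with entinostat and 253 ± 24.5 CPM with vehicle at day 10 (SD, n = 4 each; log2 fold change −0.69 ± 0.14, SE, adjusted p = 0.00504). Over time with vehicle Crebbp fell (log2 fold change −0.89 ± 0.14, adjusted p = 0.00264). Of 9 corepressor partners of SKI and SKIL, 1 was called in the 2 drug comparisons: Hdac1, a target of the drug, at 148 ± 10.2 CPM with entinostat and 112 ± 17.1 CPM with vehicle at day 17 (SD, n = 4 each; log2 fold change 0.39 ± 0.11, SE, adjusted p = 0.0217).

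Of 12 other receptors and coreceptors, 3 fell with entinostat at day 17 and 1 rose at day 10, with list medians of −0.42 and 0.24 in that order. Nrp1, a coreceptor that binds TGF-beta, averaged 69.5 ± 8.97 CPM with entinostat and 131 ± 11.9 CPM with vehicle at day 17 (SD, n = 4 each). Its log2 fold change was −0.94 ± 0.12 (SE, adjusted p = 5.61e-05), and the entinostat effect on it differed between the days by −1.10 ± 0.17 (adjusted p = 0.0125). The activin receptor genes Acvr2a (−1.49 ± 0.39, adjusted p = 0.0128) and Acvr2b (−2.52 ± 0.65, adjusted p = 0.0127) also fell at day 17, Acvr2b at a low level, 1.33 CPM with entinostat against 7.48 CPM with vehicle on average. The gene that rose at day 10 was Bmpr1a, a receptor for bone morphogenetic proteins (log2 fold change 1.95 ± 0.58, adjusted p = 0.035). Its level was low and uneven, at 10.25 to 50.05 CPM with entinostat and 3.05 to 11.48 CPM with vehicle, and these ranges overlapped.

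Of 19 tested genes for latent TGF-beta release and other ligands, 1 rose and 1 fell with entinostat at day 17, and 2 rose and 1 fell at day 10, with list medians of −0.19 and 0.81 in that order. Itgav, the integrin chain that joins the TGF-beta-releasing integrins, averaged 291 ± 73.2 CPM with entinostat and 148 ± 18.8 CPM with vehicle at day 17 (SD, n = 4 each). It rose (log2 fold change 1.01 ± 0.16, SE, adjusted p = 0.000251), and the entinostat effect on it differed between the days by 1.20 ± 0.22 (adjusted p = 0.0279). Nrros, which anchors latent TGF-beta on myeloid cells, fell at both days, with log2 fold changes of −1.04 ± 0.13 at day 17 (adjusted p = 2.71e-05) and −0.57 ± 0.12 at day 10 (adjusted p = 0.00778). The 2 that rose at day 10, Itgb6 and Bmp2, were at low levels, with averages of 26.3 and 5.85 CPM with entinostat against 3.67 and 0.694 CPM with vehicle. Itgb6 was 4.63 CPM in the lowest entinostat library, inside the vehicle range, and the part of the receptor reads given above in these low genes was not tested.

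Over time, day 17 against day 10, the same lists are to be read against the shares of all tested genes, of which 10.5% fell and 3.26% rose with entinostat, and 3.63% fell and 1.89% rose with vehicle. Of the genes for turnover and braking, 8 fell and 1 rose at day 17 against day 10 with entinostat, and 4 fell and 1 rose with vehicle. Tgif1, a SMAD corepressor gene, fell with log2 fold changes of −0.85 ± 0.12 with entinostat (SE, adjusted p = 0.000179) and −0.71 ± 0.12 with vehicle (adjusted p = 0.00387). Of the genes raised by TGF-beta, 7 fell and none rose with entinostat. These were Itgae, the members Smad7, Ski and Skil, and Tgif1, Ldlrad4 and Pmepa1, already counted under turnover and braking. With vehicle 4 fell, Smad7, Skil, Tgif1 and Pmepa1, and 1 rose. Apart from Itgae, the lower calls of this list thus repeat calls given above. Of the genes lowered by TGF-beta, 2 rose and 2 fell with entinostat, and 1 fell with vehicle. Of the other SMADs and partners, 3 fell under each treatment, Foxo1 and Runx3 in both. No corepressor partner was called over time. Of the other receptors, Nrp1 fell with entinostat and Bmpr1a rose with vehicle. Of the genes for latent TGF-beta release and other ligands, 2 rose and 2 fell with entinostat, and 4 rose and 1 fell with vehicle. Furin, the protease that cuts the TGF-beta precursor, was the 1 that fell with vehicle, at 124 ± 26.3 CPM at day 17 and 265 ± 25.7 CPM at day 10 (SD, n = 4 each; log2 fold change −1.09 ± 0.21, SE, adjusted p = 0.00804). Ltbp4, a latent TGF-beta binding protein of the matrix, rose with vehicle (log2 fold change 3.56 ± 0.95, SE, adjusted p = 0.0374) but was uneven, at 2.73 to 139.8 CPM at day 17 and 1.52 to 12.8 CPM at day 10. Beside it the summed level of 9 fibroblast markers was 133 to 1691 CPM with vehicle at day 17 and 12.2 to 247 CPM with vehicle at day 10, none of them at 0, and their part was not tested.

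**Figure D4:**
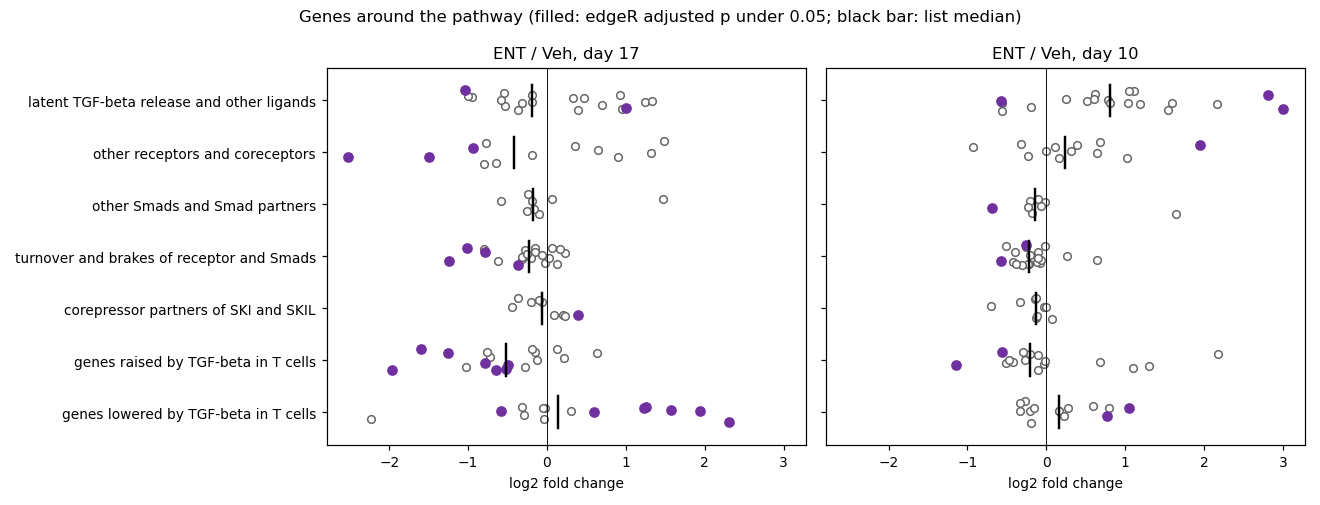
Log2 fold change for entinostat (ENT) against vehicle (Veh) of every tested gene in 7 pathway lists, at day 17 on the left and day 10 on the right, with purple points for an edgeR adjusted p under 0.05, open points for the rest and a black bar at each list's median. Vertical scatter within a row has no meaning. At day 17 the 7 called genes raised by TGF-beta lie below 0 and 6 of the 7 called genes lowered by TGF-beta lie above it.

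Likeness of pattern was measured as the root mean square difference of mean-centred log2 CPM over the 16 libraries. The search covered 9477 of the 9758 genes of at least 16 CPM. It left out the members, gene models named Gm or Rik, and segments of T cell receptors and immunoglobulins. Tgfbr1 was nearest to Prkcd (0.23), Tspyl2 (0.23) and Calhm2 (0.25), while its own libraries lay 0.54 from their mean. Smad7 was nearest to Ssh2 (0.12), Hivep2 (0.14) and Sntb2 (0.15), with its own spread at 0.51. Skil was nearest to Slc38a2, Spty2d1 and Tug1 (0.15 to 0.17). Smad4 was nearest to Slk (0.16), Dyrk1a (0.18) and Sppl3 (0.19), and Tgfbr2 to Aebp2, Tra2b and Golga5 (0.11 to 0.12). Bambi had no gene as near, since Dgat1, Ric1 and Zfp747 differed from it by 0.33 to 0.34 with its own spread at 0.64. The points share the libraries and their scaling, so these values are a description.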

How the data were processed

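RNA-seq libraries of sorted tumour CD8 T cells were made, per the labels' protocols, from total RNA with the SMART-seq v4 and Nextera XT kits, which mark neither strand nor single molecules. The deposited values are whole-number read counts per gene over exons, 1 column per library, not scaled between libraries. STAR and mm10 are named in the submitters' processing notes, and the sources used here do not give the counting program, its annotation or any removal of duplicates. Groups, days and replicate numbers come from the labels, which give no batch.

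The counts were fitted here in R 4.3.3 with edgeR 4.0.16: filterByExpr at a minimum count of 10, TMM scaling, a mean per group over all 16 libraries (12 residual degrees of freedom, common BCV, the biological coefficient of variation, 0.38) and the quasi-likelihood test, with Benjamini-Hochberg adjustment over 17414 genes at 0.05. Errors are SE for log2 fold changes and SD for CPM. Exon lengths are from GENCODE vM21, positions and promoters from RefSeq (GRCm38.p6). All members were named, with up to 3 called genes of smallest p per list and comparison, and for members called in 2 or more comparisons the 3 genes of nearest pattern, which for Smad3 are not reported here. The members and lists were chosen with earlier results of these data known.

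On simulated counts for 17414 genes, the day 17 drug test recovered 22.4% of 67 genes set to change 1.5-fold, 50.7% of 67 at 2-fold and 95.5% of 66 at 4-fold, all of at least 16 CPM, and made 5 false calls. No other gene was changed in the simulation, whereas 18.3% of tested genes were called in the data at day 17. The adjustment thus works at another cut-off there, and the recovery rates need not hold for the data. Alternatives were no filter, a minimum count of 50, RLE scaling, scaling by library size alone, DESeq2 1.42.0, limma-voom 3.58.1 with quality weights or cyclic loess, the compared groups alone, the receptor reads as a covariate, 2 replicate blocks and leaving out each library. A fit of genes of at least 16 CPM was added after the data were seen. Libraries of the same group always differed by more than counting noise, with a chi-square of at least 3.28 per degree of freedom.

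Whether equal replicate numbers pair the libraries was checked by correlating deviations from the group means. Between entinostat and vehicle at day 10 the correlations were 0.256, 0.262, 0.239 and 0.274 for numbers 1 to 4 over 9758 genes of at least 16 CPM, and 0.18, 0.0328, 0.114 and 0.057 over all tested genes. On the first set the numbers were taken as paired at day 10, on the evidence of the data alone, although number 3 did not correlate best with its own number. The main fit has no replicate block, so its p-values at day 10 and for the difference of effects leave this pairing out. With either block the day 10 calls of Bambi and Smad4 held, and both calls of the difference were lost. In no other comparison were all 4 above 0.1.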

Additional observations from a re-analysis of the deposited data

Results flagged for a closer look

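Within 40 groups of 4 libraries, 4 had a library whose gap to its nearest neighbour took an unusually large share of the range, and chance gives about 1 in 20. These were Smad4 in entinostat day 17 replicate 3 (97.1 CPM, low), the shallowest library; Ski in entinostat day 10 replicate 4 (70.5 CPM, high); Bambi in entinostat day 17 replicate 4 (30.6 CPM, high) and Bambi in vehicle day 17 replicate 1 (48.0 CPM, high), the deepest library.

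In 2 members the entinostat effect differed between day 17 and day 10 by the test of that difference: Tgfbr1 by −1.14 (adjusted p = 0.0455) and Bambi by −1.35 (adjusted p = 0.0279), both day 17 minus day 10 in edgeR. Neither was called with the replicate block (adjusted p = 0.0668 for Tgfbr1 and 0.0513 for Bambi) or with the block within each day (0.0739 and 0.0796).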

How the results depend on the processing

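The calls of Bambi and Smad4 at day 10 and of Tgfbr1 and Smad3 at day 17 held in all 28 alternatives run. The members called for entinostat at day 10 were 2 but 4 with limma-voom and quality weights. Over time with vehicle they were 4 but 2 with library size alone or cyclic loess, and over time with entinostat 8 but 5 with library size alone or the compared groups alone. For the difference of effects they were 2 but 1 with no filter or cyclic loess and 0 with either replicate block, the only calls the blocks changed. Leaving out a library gave 3 to 5 members at day 17, 2 at day 10, 6 to 9 over time with entinostat, 2 to 5 over time with vehicle (2 without vehicle day 10 replicate 3) and 0 to 2 for the difference.

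Some uncalled values near 0 changed sign, and none was called with the opposite sign. For entinostat at day 17 Smad4 was 0.0332 with RLE, 0.0790 with library size alone, 0.0976 with a minimum count of 50, 0.0324 with DESeq2, 0.172 with cyclic loess and 0.136 with genes of at least 16 CPM. Leaving out a library gave Smad4 −0.118 to 0.00630, Bambi −0.2999 to 0.0272 and Tgfb1 −0.00852 to 0.199 there. At day 10 Smad2 was 0.0969 with library size alone, 0.0597 with a minimum count of 50, 0.154 with cyclic loess, 0.0324 with the compared groups alone and 0.0986 with genes of at least 16 CPM, and −0.0804 to 0.0206 with a library left out. Tgfb1 was 0.0136 with library size alone, 0.0918 with cyclic loess and 0.0149 with genes of at least 16 CPM, Skil 0.00818 with cyclic loess, and Tgfbr2 −0.0169 to 0.119 with a library left out. Over time with vehicle Tgfb1 was 0.0547 with library size alone, 0.151 with cyclic loess, 0.00131 with receptor reads as a covariate and 0.0344 with genes of at least 16 CPM, and Smad2 0.0126 with cyclic loess. For the difference Tgfbr2 was −0.0678 with cyclic loess and −0.0241 to 0.133 with a library left out. The cause was not tested.

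With library size alone the medians of genes of at least 16 CPM were −0.06 at day 17, −0.01 at day 10, −0.03 over time with entinostat and 0.03 with vehicle. The share of higher among called genes was then 48.2% at day 17, 76.0% at day 10, 43.3% over time with entinostat and 59.4% with vehicle, against 28.9%, 52.4%, 23.7% and 34.2% with TMM. With RLE it was 40.7% at day 17, and with cyclic loess 50.4% at day 17, 41.6% at day 10 and 53.1% over time with entinostat. With genes of at least 16 CPM it was 43.2% at day 17 and 43.1% over time with entinostat, and for the difference of effects it was 58.5% with RLE against 46.3% with TMM. Counting error was largest in entinostat day 17 replicate 3, with 38 reads of Tgfbr1 and 17 of Bambi. Actb had 1618 counts there and 2415 to 3265 elsewhere, far less than proportional to depth, and its part in the values of the most abundant members, Tgfbr2 and Skil, was not tested.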
